A study of Mus musculus with 10 samples.

Results

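Matrix metalloproteases (MMPs), ADAMs, ADAMTS proteases and the tissue inhibitors of metalloproteases (TIMPs) were followed by RNA sequencing of 10 libraries. The cells were immortalised fibroblasts derived from mouse embryos (MEFs), a culture model of connective tissue. Members were all gene symbols made of Mmp, Timp, Adam or Adamts followed directly by digits, with an optional trailing letter, less 2 symbols that the rule left out. This gave 76 of the 23337 symbols in the data. A member counts as detected when it held 10 or more normalised reads (reads divided by the library's size factor) in at least 2 libraries. By that threshold 36 members were detected and 40 were not, and 19 of the 76 had no read in any library.

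The labels give the genotype as Slfn2 WT or Slfn2 KO, called WT-labelled and KO-labelled here. Slfn2 belongs to the Schlafen family, and interferon is known to induce it. Cells were left untreated or were given mouse interferon-β (IFN-β, a type I interferon) at 5000 IU/ml for 6 h. Each treatment had 3 libraries of the WT-labelled and 2 of the KO-labelled cells. The labels say that cells were plated in duplicate or triplicate and name no separate cultures or embryos behind the replicates. Genotype then cannot be told apart from any other difference between the cells of each label, and the p-values measure the spread between libraries, which may be technical.

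MMPs are zinc proteases that cut collagens, laminins and other matrix proteins; some are secreted and others, such as the membrane-type MMPs, sit on the cell surface. ADAMs are mostly membrane-bound and release the outer parts of growth factors, receptors and adhesion proteins, while ADAMTS enzymes are secreted and act on procollagens, proteoglycans such as versican and aggrecan, and other matrix proteins. TIMPs block the active sites of these enzymes, and fibroblasts are a main source of both the enzymes and the inhibitors in connective tissue.

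Libraries held between 13565815 and 16329729 reads, and 3 reads, the floor used for counts of 0, equalled 2.73 to 3.29 normalised reads. As a check of the treatment, Isg15, an interferon-induced ubiquitin-like protein, read 183, 219.8 and 130.1 normalised reads in untreated and 6362, 5411 and 6073 in IFN-β-treated WT-labelled libraries. In KO-labelled cells its untreated libraries were at 45.1 and 184 and its treated ones at 7386 and 8141. Slfn2 itself read 18.7, 17.4 and 15.5 in untreated WT-labelled libraries and 46.1 and 34.9 in untreated KO-labelled ones. After IFN-β it read 527, 449 and 573 in WT-labelled and 75.0 and 171 in KO-labelled libraries, so reads over the whole gene do not settle the knockout label. All 10 fibroblast markers were detected, whereas 0 of 6 epithelial and 0 of 4 endothelial markers were. Of 5 macrophage markers analysed 2 were detected (Csf1r and Cd68), and the pan-leukocyte marker Ptprc did not exceed 1.88 normalised reads in any library. Libraries of the same replicate number shared deviations from their group means. For that reason values with the replicate number as a block are given beside those without it where the call differs.

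Expression per length placed the inhibitors first. Over the 10 libraries Timp1 averaged 7776 normalised reads per kb of merged exon, Timp2 4340 and Timp3 1946. The proteases with the highest level per kb were Mmp2 (904), Adam9 (869), Mmp14 (655), Adamts1 (648) and Adam10 (406). The order of the means differed between groups. Adamts1 had the highest mean of the proteases in IFN-β-treated WT-labelled cells (1042 per kb). That mean rested largely on library 2, at 10187 normalised reads against 2646 and 3738 in libraries 1 and 3. In untreated KO-labelled cells the mean of Adamts1 lay below that of Adam10 (330 against 440.0). There the mean of Timp2 (5166) was slightly above that of Timp1 (5029). Timp1 read 7166 and 1765 normalised reads in those libraries, so its mean describes neither. Adam22 (2.09) and Adamts9 (1.80) had the lowest levels per kb of all detected members. Detected members numbered 9 of 21 Mmp, 3 of 4 Timp, 12 of 32 Adam and 12 of 19 Adamts symbols. Just inside the threshold, the second-highest library value was 14.3 for Adam4, 20.0 for Mmp23 and 20.6 for Mmp10. Just outside it, the highest library value was 10.5 for Mmp24 (its only library at 10 or more), 9.88 for Mmp7 and 7.70 for Mmp8. Adam4, Adamts9 and Mmp10 reached the threshold only through WT-labelled libraries, so the choice of these 3 by the threshold favours a difference in that direction.

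Among the inhibitors, Timp1, a secreted TIMP that maps to chromosome X (20870166 to 20874735, plus strand, GRCm38), read 13407, 5607 and 2910 normalised reads in untreated WT-labelled libraries. Under IFN-β the WT-labelled libraries read 17821, 5073 and 3886. In KO-labelled libraries Timp1 read 7166 and 1765 untreated and 9068 and 2348 under IFN-β. The library numbered 1 was the highest in each of the 4 groups, and the genotypes overlapped. KO-labelled over WT-labelled, the log2 fold change of Timp1 was −0.76 ± 0.92 (SE) untreated and −0.61 ± 0.92 under IFN-β (limma, adjusted p = 0.72 and 0.78). Its sign turned without KO-labelled library 2 of the same treatment (0.25 and 0.36) and, under IFN-β, without WT-labelled IFN-β library 1 (0.06). With the replicate number as a block it was lower (log2 fold change −1.24 and −1.09, adjusted p = 0.0017 and 0.0030).

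Timp2, which inhibits MMPs and also bridges Mmp14 and pro-Mmp2 when the latter is activated, lies on chromosome 11 (118301069 to 118355740, minus strand). It read 13932, 12039 and 11279 normalised reads in untreated WT-labelled libraries and 18276, 14742 and 12375 under IFN-β. KO-labelled values were 24033 and 16222 untreated and 29240 and 16954 under IFN-β. Untreated groups did not overlap, while the IFN-β groups did. The log2 fold change of Timp2 was 0.67 ± 0.28 untreated and 0.58 ± 0.28 under IFN-β (limma, adjusted p = 0.20 and 0.28). With the block Timp2 was higher in KO-labelled cells, by 0.57 and 0.47 (adjusted p = 0.020 and 0.0395). The untreated call with the block was lost without WT-labelled untreated library 1 or either KO-labelled untreated library, and the IFN-β call was lost on leaving out any of 7 libraries.

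Timp3, which binds to the matrix and is the TIMP known to inhibit Adam17, Adamts4 and Adamts5, lies on chromosome 10 (86300372 to 86349506, plus strand). It read 17214, 3727 and 4322 normalised reads in untreated WT-labelled libraries and 16432, 6399 and 5530 under IFN-β. In KO-labelled libraries it read 35649 and 15311 untreated and 33814 and 20058 under IFN-β. Within each number the KO-labelled library was above the WT-labelled one, by 1.05 and 2.04 log2 units untreated and by 1.04 and 1.65 under IFN-β. Without the block the log2 fold change of Timp3 was 1.84 ± 0.72 and 1.64 ± 0.72 (limma, adjusted p = 0.18 and 0.23). With the block Timp3 was higher in KO-labelled cells by 1.54 and 1.34 (adjusted p = 0.0042 and 0.0075), and the IFN-β call was lost without KO-labelled IFN-β library 2. Timp1 thus differed in the opposite direction to Timp2 and Timp3 in both treatments, in the fit with the block. Timp4, the remaining inhibitor, did not exceed 1.03 normalised reads.

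**Figure D1:**
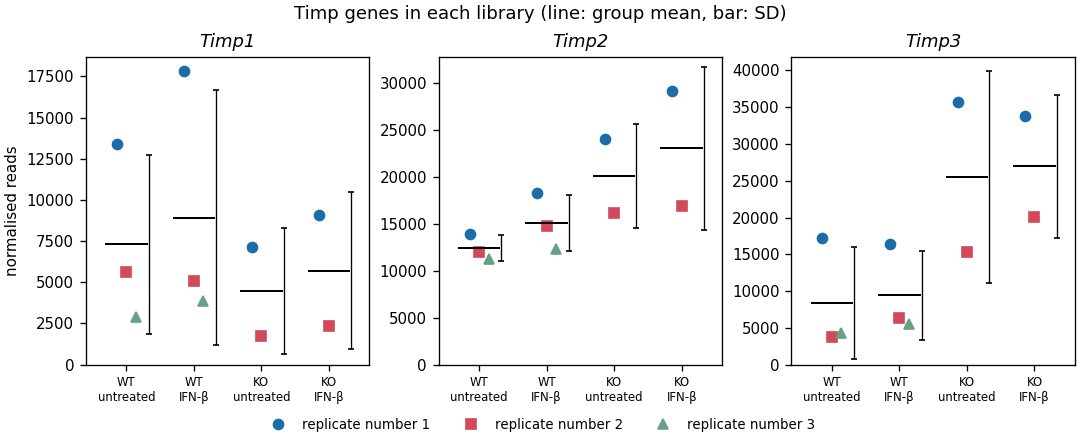
Normalised reads of Timp1, Timp2 and Timp3 (y axis, linear) in each library of the 4 groups (x axis), with the group mean as a line, the SD as a bar and the replicate number as the symbol. Number 1 is the highest library in every group, and Timp3 in KO-labelled cells lies between 15311 and 35649.

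The comparison of genotypes asks how the KO-labelled cells differed from the WT-labelled ones. In untreated cells 4 of 36 detected members passed the test, against 6.23% of all 12313 genes tested (limma, Benjamini-Hochberg adjusted p under 0.05). Adamts3 and Adam15 were higher in KO-labelled cells (3% of all genes were), and Adamts7 and Adamts9 were lower (3.23% of all genes). Under IFN-β, 5 members passed, against 6.55% of all genes (2.92% higher and 3.64% lower). These were the same 4 genes, in the same directions, with Adam22 added as lower. In bulk RNA such as this, fewer cells of a type and less RNA per cell cannot be told apart. With the replicate number as a block, 16 members passed untreated (8 higher, 8 lower, against 26.6% of all genes, 13.5% higher and 13.1% lower) and 17 passed under IFN-β (8 higher, 9 lower, against 26% of all genes, 12.7% higher and 13.3% lower). Of these, 15 passed in both treatments in the same direction, and 18 of the 36 passed in neither. The shares of all genes that did so were not counted, so the 15 and 18 show nothing particular to the family. By the libraries alone, untreated KO-labelled values lay wholly above the WT-labelled ones for 8 members (15.7% of all genes) and wholly below for 9 (15.9%). Under IFN-β these counts were 7 (20%) and 8 (20.4%), near the background. The median log2 fold change over the 36 members was 0.28 untreated and 0.04 under IFN-β, beside 0.00 and 0.00 over all genes.

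Adamts3, a procollagen N-proteinase that also takes part in activating the lymphatic growth factor VEGF-C, lies on chromosome 5 (89677087 to 89883334, minus strand). It read 15.4, 25.2 and 6.19 normalised reads in untreated WT-labelled libraries and 15.4, 27.0 and 13.5 under IFN-β. Among KO-labelled libraries the values were 233 and 275 untreated and 238 and 247 under IFN-β, so every KO-labelled library lay above every WT-labelled one. Adamts3 was higher in KO-labelled cells by 4.13 ± 0.53 log2 units untreated and 3.69 ± 0.53 under IFN-β (limma, adjusted p = 0.0023 and 0.0039). The call held without any 1 library, with adjusted p up to 0.022 untreated and 0.038 under IFN-β.

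Adamts9, a versican-cleaving enzyme of the pericellular matrix, lies on chromosome 6 (92772699 to 92943492, minus strand). It read 47.2, 51.3 and 36.1 normalised reads in untreated WT-labelled libraries and 49.4, 48.0 and 31.8 under IFN-β. For KO-labelled libraries the values were 1.05 and 5.65 untreated and 0 and 0 under IFN-β. KO-labelled and WT-labelled libraries did not overlap. Adamts9 was lower untreated (log2 fold change −3.62 ± 0.55, limma, adjusted p = 0.0054). Under IFN-β the 2 KO-labelled libraries held 0 reads against 129 reads in the 3 WT-labelled ones, at least 14.6-fold lower against the floor of 3 reads per library (limma, adjusted p = 0.00068). Both calls held without any 1 library, but the untreated call was lost in a fit of only the untreated groups. Adamts9 reached the detection threshold only through WT-labelled libraries, so a difference in this direction was favoured.

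Adamts7, a secreted enzyme known to cleave cartilage oligomeric matrix protein, lies on chromosome 9 (90163069 to 90208071, plus strand). It read 123, 312 and 266 normalised reads in untreated WT-labelled libraries and 112, 236 and 176 under IFN-β. KO-labelled values were 12.6 and 45.2 untreated and 8.45 and 15.5 under IFN-β, all below every WT-labelled library. Adamts7 was lower, with log2 fold changes of −3.12 ± 0.61 untreated and −3.75 ± 0.61 under IFN-β (limma, adjusted p = 0.018 and 0.0077). The untreated call was lost without WT-labelled untreated library 2 or 3 or KO-labelled untreated library 1 (0.090 at most), and the IFN-β call without KO-labelled IFN-β library 1 (0.063). With the block both calls held without any 1 library.

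Adam15, a membrane-bound protease also called metargidin, lies on chromosome 3 (89338542 to 89349996, minus strand). It read 1011, 1310 and 735 normalised reads in untreated WT-labelled libraries and 1031, 1028 and 753 under IFN-β. In KO-labelled libraries it read 1899 and 2020 untreated and 1790 and 2048 under IFN-β, above every WT-labelled library. Adam15 was higher by 0.98 ± 0.24 log2 units untreated and 1.04 ± 0.24 under IFN-β (limma, adjusted p = 0.048 and 0.038). Both lay near the threshold. The untreated call was lost on leaving out any library except WT-labelled untreated library 2 (0.20 at most), and the IFN-β call on leaving out any of 6 libraries (up to 0.21). With the block neither was lost.

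Adam22, a member without protease activity that serves as a receptor for the secreted protein Lgi1 in the nervous system, lies on chromosome 5 (8072352 to 8368160, minus strand). It read 20.9, 60.0 and 45.4 normalised reads in untreated WT-labelled libraries and 20.6, 79.0 and 45.3 under IFN-β. Among KO-labelled libraries the values were 6.29 and 11.3 untreated and 3.17 and 8.20 under IFN-β, below every WT-labelled library. Adam22 was lower under IFN-β (log2 fold change −2.80 ± 0.68, limma, adjusted p = 0.043), a call lost on leaving out any of 6 libraries (adjusted p up to 0.21). Untreated, its log2 fold change was −2.06 ± 0.68 (limma, adjusted p = 0.12). With the block it was lower untreated (log2 fold change −1.98, adjusted p = 0.0048), and this did not hold without KO-labelled untreated library 2.

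**Figure D2:**
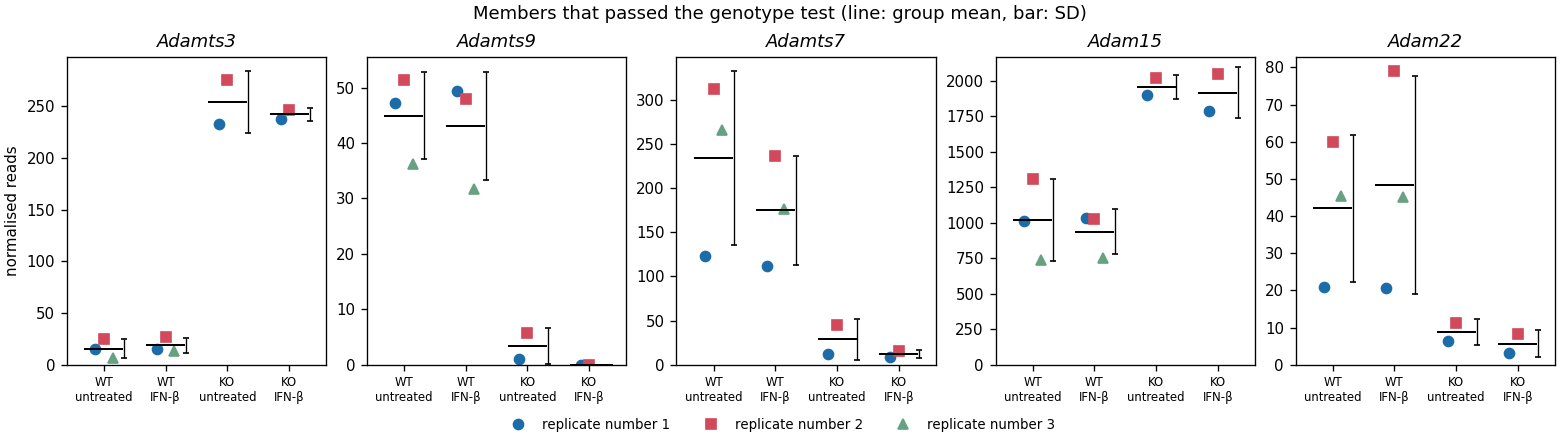
Normalised reads (y axis, linear, from 0) of the 5 members that passed the genotype test without the block, in each library of the 4 groups (x axis), with the group mean as a line, the SD as a bar and the replicate number as the symbol. Adamts3 lies at 233 or more in KO-labelled and at 27.0 or less in WT-labelled libraries, and Adamts9 is at 0 in both KO-labelled IFN-β libraries.

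Promoter letters are shown for Adamts3 and Adamts9, which had the largest called differences in each direction, and for Mmp10, which was at or near 0 in all KO-labelled libraries. RefSeq (GRCm38.p6) promoter windows were at hand for 22 of the 36 detected members, in 25 windows. Of each, the 250 bases before the RefSeq start are given, 5′ to 3′ on the gene's strand, for Mmp10 (chr9:7502092-7502341, plus strand), Adamts3 (chr5:89883335-89883584, minus strand) and Adamts9 (chr6:92943535-92943784, minus strand). Capitals mark an AP-1 motif (TGANTCA).
Mmp10: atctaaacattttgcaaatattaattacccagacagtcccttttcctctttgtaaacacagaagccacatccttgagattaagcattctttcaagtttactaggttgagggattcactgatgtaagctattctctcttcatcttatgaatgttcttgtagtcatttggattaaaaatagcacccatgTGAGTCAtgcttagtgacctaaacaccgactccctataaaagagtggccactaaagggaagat
Adamts3: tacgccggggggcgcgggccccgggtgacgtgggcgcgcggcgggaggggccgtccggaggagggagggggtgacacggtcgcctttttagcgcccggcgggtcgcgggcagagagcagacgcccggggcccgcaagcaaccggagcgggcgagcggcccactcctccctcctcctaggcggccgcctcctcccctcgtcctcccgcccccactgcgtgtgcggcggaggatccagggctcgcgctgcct
Adamts9: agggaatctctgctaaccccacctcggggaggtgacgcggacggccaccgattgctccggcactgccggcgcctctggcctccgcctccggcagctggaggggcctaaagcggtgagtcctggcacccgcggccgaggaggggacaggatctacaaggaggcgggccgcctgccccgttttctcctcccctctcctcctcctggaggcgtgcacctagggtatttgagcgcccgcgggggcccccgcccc
The AP-1 motif, searched on both strands, was found in the windows of 2 detected members, Mmp10 (63 bases before the start) and Adam19 (131 bases before it), beside 6.75% of 32851 promoters of the same length. The interferon-stimulated response element (GAAA, any 2 bases, GAAA) was found in 0 of the 22 members' windows, beside 2.98% of all promoters. The interferon-gamma-activated site (TTCNNNGAA) was found in 1, Mmp23, beside 7.02% of all promoters. These matches describe the letters only.

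Further MMPs differed between the genotypes in limma when the number was a block. Without a block, DESeq2 called Mmp9 in both treatments, and likewise Adam8, Adam22 and Adam23. Mmp9, a gelatinase of basement membrane collagen, read 288, 103 and 77.4 normalised reads in untreated WT-labelled and 24.1 and 37.7 in untreated KO-labelled libraries. IFN-β-treated libraries read 271, 94.98 and 45.3 against 22.2 and 19.1. The genotypes did not overlap in either treatment, and with the block Mmp9 was lower (log2 fold change −2.58 and −2.79; limma, adjusted p = 0.0062 and 0.0045; without it 0.15 and 0.11). Mmp19, a secreted MMP of broad substrate range, read 233, 571 and 396 in untreated WT-labelled and 78.6 and 252 in untreated KO-labelled libraries. Under IFN-β the values were 255, 458 and 349.5 against 101 and 223, and only the IFN-β groups were free of overlap. With the block Mmp19 was lower (log2 fold change −1.38 and −1.16; limma, adjusted p = 0.0017 and 0.0035; without it 0.20 and 0.28).

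Mmp16, a membrane-type MMP, read 198, 252 and 268 normalised reads in untreated WT-labelled and 331 and 473 in untreated KO-labelled libraries. After IFN-β it read 194, 339 and 250.3 against 372 and 515. In both treatments the KO-labelled libraries lay above the WT-labelled ones. With the block Mmp16 was higher by 0.77 and 0.82 log2 units (limma, adjusted p = 0.0086 and 0.0069; without it 0.19 and 0.16), and each call was lost without either KO-labelled library of that treatment. Mmp10, a stromelysin, was low everywhere. It read 43.9, 1.94 and 7.23 in untreated and 20.6, 0 and 7.70 in IFN-β-treated WT-labelled libraries, and at most 0.942 in a KO-labelled library. Untreated, 49 reads in WT-labelled against 1 read in KO-labelled libraries corresponded to a 33.9-fold ratio of the read totals after scaling for depth, with a 95% interval from counting error of 5.81 to 1366, and under IFN-β 28 reads stood against 0, at least 3.20-fold lower. Its difference did not pass with or without the block (limma, adjusted p = 0.28 without and 0.13 with it untreated, 0.36 and 0.19 under IFN-β), whereas edgeR with the block called it in both treatments. Its WT-labelled level rested mainly on the libraries numbered 1. Mmp10 reached the detection threshold only through WT-labelled libraries, so a difference in this direction was favoured.

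Mmp2 and Mmp14, the gelatinase and its membrane-type activator, were the 2 most expressed MMPs. Mmp2 read 2340, 3567 and 2409 normalised reads in untreated WT-labelled libraries and 2343, 3200 and 2278 under IFN-β. In KO-labelled libraries it read 2582 and 4634 untreated and 2825 and 4298 under IFN-β. The KO-labelled libraries lay within or above the WT-labelled range. Its log2 fold change under IFN-β was 0.44 ± 0.31 (limma, adjusted p = 0.49), and 0.35 with the block (0.043), a call lost on leaving out any of 7 libraries.

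Mmp14 read 2992, 4924 and 3934 normalised reads in untreated WT-labelled libraries and 2588, 4420 and 3541 under IFN-β. For KO-labelled libraries the values were 3037 and 5824 untreated and 2552 and 5212 under IFN-β. The genotypes overlapped, with a log2 fold change of 0.12 ± 0.39 untreated and 0.09 ± 0.39 under IFN-β (limma, adjusted p = 0.91 and 0.93). Mmp11, known as stromelysin-3 and typical of fibroblasts, came next among the MMPs. It read 475, 1210 and 729.8 in untreated WT-labelled and 459 and 1084 in untreated KO-labelled libraries, and 413, 889.8 and 633 against 488 and 817 under IFN-β. The genotypes overlapped in both treatments.

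Of the membrane-bound ADAMs, Adam10 and Adam17 are the main sheddases, Adam17 being the enzyme that releases tumour necrosis factor and several ligands of the EGF receptor. Adam10 read 1875, 1653 and 2108 normalised reads in untreated WT-labelled libraries and 2029 and 2294 in untreated KO-labelled ones. IFN-β-treated libraries read 1725, 2084 and 2036 against 1982 and 2151. Adam10 varied little: its highest library was 1.39 times its lowest. Adam17 read 1212, 1017 and 1630 in untreated WT-labelled and 955 and 839 in untreated KO-labelled libraries, and 1179, 1265 and 1630 against 888 and 909 under IFN-β. Each KO-labelled library lay below every WT-labelled one. The log2 fold change of Adam17 was −0.50 ± 0.22 untreated and −0.58 ± 0.22 under IFN-β (limma, adjusted p = 0.24 and 0.17). With the block it was lower under IFN-β (log2 fold change −0.42, adjusted p = 0.032), a call lost on leaving out any of 6 libraries, and untreated it did not pass (0.069).

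Adam9, the ADAM with the highest level, read 3671, 2520 and 2900 normalised reads in untreated WT-labelled libraries and 4113, 4152 and 3434 under IFN-β. KO-labelled values were 3879 and 3109 untreated and 4331 and 3670 under IFN-β, overlapping the WT-labelled ones in both treatments. Adam19, also called meltrin beta and able to shed neuregulins, read 738, 108 and 122 in untreated WT-labelled and 1903 and 753 in untreated KO-labelled libraries. Under IFN-β the values were 524, 108 and 75.1 against 1539 and 503. The KO-labelled libraries were the higher within each number. With the block Adam19 was higher by 2.00 and 1.95 log2 units (limma, adjusted p = 0.0023 and 0.0026; without it 0.21 and 0.22). Its relative Adam12, meltrin alpha, read 1019, 256 and 264 against 981 and 106 untreated, and 938, 349 and 284 against 934 and 180.4 under IFN-β. Its log2 fold change was −0.35 ± 1.07 and −0.14 ± 1.07 (limma, adjusted p = 0.90 and 0.97), and it did not pass with the block either (0.16 and 0.32). On leaving out 1 library its value ran from −1.95 to 1.26 untreated and from −1.32 to 1.04 under IFN-β, so its direction turned with the library left out.

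Adam8, best known from immune cells, read 27.5, 38.7 and 57.8 normalised reads in untreated WT-labelled and 61.9 and 236 in untreated KO-labelled libraries. After IFN-β it read 29.9, 41.0 and 49.1 against 104 and 203. The genotypes did not overlap, and with the block Adam8 was higher by 1.81 and 2.08 log2 units (limma, adjusted p = 0.0069 and 0.0038; without it 0.16 and 0.10). The untreated call with the block was lost without KO-labelled untreated library 2. The summed macrophage markers ran from 53.0 to 73.6 in WT-labelled and from 53.9 to 97.0 in KO-labelled libraries, with Itgam, Ptprc and Lyz2 each at 1.88 or less, and their part in the Adam8 result was not tested. Adam23, a protease-inactive relative of Adam22, read 266, 289.5 and 47.5 in untreated WT-labelled and 14.7 and 41.5 in untreated KO-labelled libraries. IFN-β-treated libraries read 267, 239 and 50.1 against 19.0 and 17.3. Number 3 was the lowest WT-labelled library in both treatments but still above the KO-labelled ones. With the block Adam23 was lower (log2 fold change −3.40 and −3.76; limma, adjusted p = 0.00049 and 0.00026; without it 0.15 and 0.10).

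In the ADAMTS group the 3 procollagen N-proteinases gave unlike values. Adamts3 was higher in KO-labelled cells, as given above. Adamts2, which trims procollagen I, read 287, 235 and 96.0 normalised reads in untreated WT-labelled and 130.0 and 127 in untreated KO-labelled libraries, and 355, 231 and 116 against 153 and 135 under IFN-β. Its groups overlapped. With the block Adamts2 was lower (log2 fold change −0.99 and −1.01; limma, adjusted p = 0.0052 and 0.0048; without it 0.64 and 0.63). Adamts14 read 815, 457 and 507 against 1019 and 524 untreated, and 819, 522 and 571 against 1030 and 654 under IFN-β, a difference that did not pass with or without the block (limma with the block, adjusted p = 0.12 and 0.083).

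Adamts1 and Adamts5, proteoglycan-cleaving enzymes whose genes lie 53.1 kb apart on chromosome 16, were the 2 most expressed ADAMTS members. Adamts1 read 1170, 5266 and 2887 normalised reads in untreated WT-labelled libraries and 2646, 10187 and 3738 under IFN-β. In KO-labelled libraries it read 1310 and 2188 untreated and 2650 and 2325 under IFN-β. Number 2 was the highest WT-labelled library in both treatments. Adamts5 read 595, 2066 and 1244 in untreated WT-labelled libraries and 1607, 3826 and 1904 under IFN-β, and 1301 and 1744 against 2302 and 1897 in KO-labelled ones. Neither passed a genotype test with or without the block.

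**Figure D3:**
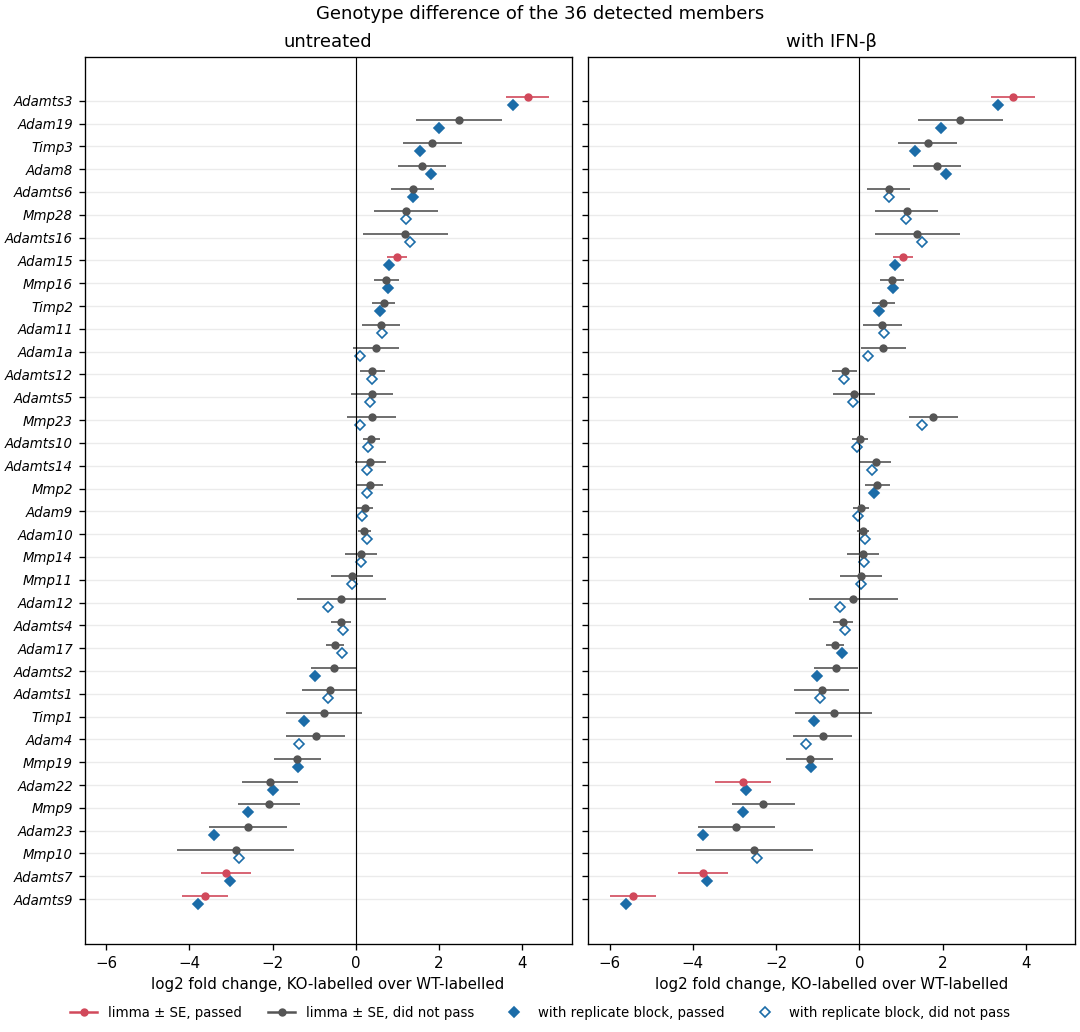
Log2 fold change of KO-labelled over WT-labelled cells (x axis) for the 36 detected members (y axis, ordered by the untreated value), untreated (left) and under IFN-β (right). Circles with bars are limma estimates ± SE without the block, red where they passed, and diamonds are estimates with the replicate number as a block, filled where they passed. Adamts3 is the highest in both panels, Adamts9 the lowest, and 16 and 17 diamonds are filled.

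The remaining detected members, Adam11, Adam1a, Adam4, Adamts10, Adamts12, Adamts16, Adamts4, Mmp23 and Mmp28, passed no genotype test in limma, without or with the block. edgeR with the block called Adamts16 in both treatments and Mmp28 untreated. Over the 10 libraries, Adamts10, which acts on fibrillin microfibrils, ran from 334 to 585 normalised reads, Adamts12 from 117 to 269.9 and the aggrecanase Adamts4 from 90.8 to 172. Adamts16 ran from 9.27 to 124, and its 2 highest values were the KO-labelled libraries numbered 2. Adam11 ran from 19.6 to 61.2, Adam1a from 13.5 to 48.6, Mmp23 from 2.89 to 27.5 and Adam4 from 2.89 to 21.6. Mmp28, or epilysin, lies 370.1 kb from Slfn2 on chromosome 11. It read 17.6, 43.6 and 32.0 in untreated WT-labelled and 27.3 and 169.6 in untreated KO-labelled libraries, and 55.6, 83.0 and 57.8 against 80.3 and 253 under IFN-β. The genotypes overlapped in both treatments.

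The comparison of treated with untreated cells addresses which members type I interferon moves within 6 h. In WT-labelled cells 0 of 36 members passed the test, against 2.21% of all genes, and in KO-labelled cells 0 of 36 passed, against 1.84% of all genes (limma). At an unadjusted p under 0.05 there were 2 members in WT-labelled cells (Adamts6 and Adamts12) and 1 in KO-labelled cells (Adamts9), beside 6.07% and 4.86% of all genes. edgeR called 0 in both genotypes, and DESeq2 called 1 in WT-labelled (Adamts6) and 0 in KO-labelled cells. With the block, 1 member passed in WT-labelled cells, against 4.95% of all genes, and 0 in KO-labelled cells, against 3.48%. Treated libraries lay wholly above untreated ones for 3 members in WT-labelled cells (7.48% of all genes) and 5 in KO-labelled cells (10.7%), and wholly below for 0 (4.11%) and 3 (9.67%). The median log2 fold change of the members was 0.07 in WT-labelled and 0.01 in KO-labelled cells, beside −0.03 over all genes in each.

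The member that passed with the block was Adamts6, a secreted ADAMTS enzyme on chromosome 13 (104287835 to 104496695, plus strand). It read 233, 49.4 and 116 normalised reads in untreated WT-labelled libraries and 453, 305 and 344 under IFN-β. Among KO-labelled libraries the values were 309 and 264 untreated and 607 and 575 under IFN-β. In both genotypes every IFN-β library lay above every untreated one. The log2 fold change was 1.71 ± 0.46 in WT-labelled cells (limma, adjusted p = 0.16, and 0.030 with the block) and 1.05 ± 0.57 in KO-labelled cells (1.0, and 0.41 with the block). The call with the block was lost without WT-labelled untreated library 3 or any of the 3 WT-labelled IFN-β libraries. Between genotypes, Adamts6 was higher in untreated KO-labelled cells with the block only (1.37, limma, adjusted p = 0.044), a call lost on leaving out any of 7 libraries.

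Paired by replicate number, 7 of 36 members were higher under IFN-β in all 5 pairs: Adam9, Adamts1, Adamts14, Adamts5, Adamts6, Mmp28 and Timp2. Over all genes tested, 14.4% were higher in all 5 pairs. For Adamts6 the differences were 0.96, 2.60 and 1.56 log2 units in the WT-labelled pairs and 0.97 and 1.12 in the KO-labelled pairs. Adam19, Adamts7, Mmp14 and Mmp9, 4 members, were lower in all 5 pairs, beside 16.9% of all genes. Both counts are near the background, and apart from Adamts6 none of these members passed the test in either genotype.

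**Figure D4:**
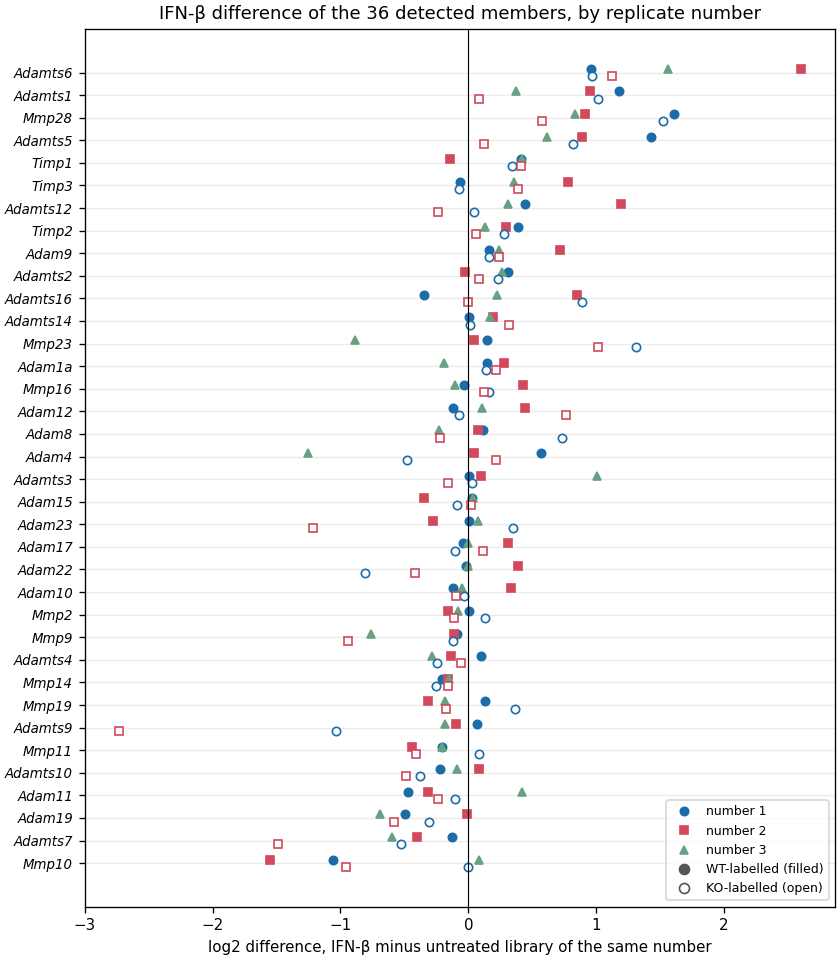
Log2 difference between the IFN-β and the untreated library of the same replicate number (x axis) for the 36 detected members (y axis). Members are ordered by their median over the 5 pairs. Symbols are filled for WT-labelled and open for KO-labelled pairs, and their shape gives the number. Adamts6 lies between 0.96 and 2.60 in all 5 pairs, while most members straddle 0.

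The interaction, which asks whether the IFN-β response differs between the genotypes, passed for 0 of 36 members, against 0% of all genes (limma), with 1 member at an unadjusted p under 0.05, beside 0.292% of all genes. edgeR and DESeq2 also called 0 members. The interaction estimates of the members ran from −1.81 to 1.39 log2 units, the lowest being Adamts9 (−1.81 ± 0.77, limma, adjusted p = 1.0), whose KO-labelled libraries held 7 reads untreated and 0 under IFN-β.

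Some members differed widely between replicate numbers within the groups. Adam12, Adam19 and Timp1 were lower by more than 1 log2 unit in the library numbered 2 than in that numbered 1 in all 4 groups, beside 4.07% of all genes that differed by as much in either direction. Their differences ran from −3.20 to −1.42 for Adam12, from −2.76 to −1.34 for Adam19 and from −2.02 to −1.26 for Timp1. In all, 9 members were lower in number 2 in all 4 groups (27.9% of all genes) and 13 were higher (30.1%), the latter with Mmp2, Mmp11, Mmp14, Mmp16, Mmp19 and Mmp28 among them. What a number marks is not stated in the labels, and its part in these values was not tested beyond the block.

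Genes that act with the family were followed as lists. Among 20 tested substrates of ADAM shedding, 1 passed the IFN-β test in each genotype, and it was Dll1, a Notch ligand. Dll1 read 0, 0.968 and 3.10 normalised reads in untreated and 54.6, 46.0 and 51.0 in IFN-β-treated WT-labelled libraries, and 0 and 0 against 57.0 and 93.9 in KO-labelled ones. Dll1 was higher after IFN-β in both (limma, adjusted p = 0.0011 in WT-labelled and 0.00082 in KO-labelled cells), but it passed the low-count filter only through IFN-β-treated libraries. No other list had a member that passed in an IFN-β comparison without the block. With it, the adhesion protein Vcam1 also passed in WT-labelled cells (without the block 0.75 ± 0.17, limma, adjusted p = 0.069, and 0.0051 with it).

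Between the genotypes, 2 of the 20 substrates were lower in KO-labelled cells in both treatments, and 6 with the block. Beside these and the list counts below, 3% of all genes were higher and 3.23% lower untreated, and 2.92% and 3.64% under IFN-β. With the block these shares were 13.5% and 13.1% untreated, and 12.7% and 13.3% under IFN-β. The median log2 fold change of the substrates was −0.29 untreated and −0.47 under IFN-β, beside medians of all genes of 0.0034 and −0.0001. Tgfa, an EGF receptor ligand released by Adam17, read 51.6, 27.1 and 80.5 normalised reads in untreated WT-labelled libraries and 45.3, 43.0 and 97.3 under IFN-β, and 0 in all KO-labelled libraries (limma, adjusted p = 0.00073 and 0.00056). It passed the low-count filter only through WT-labelled libraries, so a difference in that direction was favoured. Cdh11, a cadherin of mesenchymal cells, read 3373, 2296 and 2010 against 240.1 and 291 untreated, and 3927, 4557 and 3109 against 301 and 499 under IFN-β. It was lower (log2 fold change −3.23 ± 0.29 and −3.30 ± 0.29; limma, adjusted p = 0.00035 and 0.00028). Of 4 tested proprotein convertases, which cut the inhibitory prodomain from many ADAMs and membrane-type MMPs, Furin was lower in IFN-β-treated KO-labelled cells. Furin read 2011, 1572 and 1506 in WT-labelled and 905 and 861 in KO-labelled libraries, a log2 fold change of −0.93 ± 0.17 (limma, adjusted p = 0.014) that was lost without either KO-labelled IFN-β library. With the block Furin was lower untreated as well (−0.67 ± 0.17 and adjusted p = 0.054 without the block, 0.0049 with it, limma), and 2 of the 4 convertases were lower in each treatment. Of 7 tested partners of Adam10 and Adam17, 0 passed in either treatment without the block, and with it 2 were lower untreated and 1 under IFN-β.

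Of 15 tested matrix substrates, 1 was higher and 3 were lower in KO-labelled cells in each treatment. With the block 4 were higher and 6 lower untreated, and 3 were higher and 5 lower under IFN-β. The collagen IV chains Col4a1 and Col4a2, of the basement membrane, had the widest difference. Col4a1 read 4429, 1265 and 991 normalised reads in untreated WT-labelled and 46.1 and 8.48 in untreated KO-labelled libraries, a log2 fold change of −6.39 ± 1.03 (limma, adjusted p = 0.0072) that was lost without KO-labelled untreated library 2 (0.059). Col4a2 read 3799, 1196 and 775 against 47.2 and 4.71, a log2 fold change of −6.52 ± 1.15 (limma, adjusted p = 0.011), lost without the same library (0.082). The basement membrane proteoglycan Hspg2 was lower untreated (log2 fold change −0.58 ± 0.13, limma, adjusted p = 0.036), a call lost on leaving out any library. Acan, the cartilage proteoglycan aggrecan, held 0 reads in all WT-labelled libraries and read 9.44 and 16.02 untreated and 6.34 and 11.8 under IFN-β in KO-labelled ones (limma, adjusted p = 0.0072 and 0.013). It passed the low-count filter only through KO-labelled libraries, and the calls were lost without KO-labelled untreated library 2 or either KO-labelled IFN-β library, respectively.

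A list of other protease inhibitors and regulators, with some cathepsins in it, had 8 tested genes. Of these, Ctsl and Cst3 were lower in untreated KO-labelled cells, and Ctsl also in treated ones. With the block 5 of the 8 were lower in each treatment, beside 13.1% of all genes untreated and 13.3% under IFN-β. Ctsl, a lysosomal cysteine protease, read 12488, 9966 and 10851 normalised reads in untreated WT-labelled and 4190 and 4440 in untreated KO-labelled libraries. It was lower (log2 fold change −1.36 ± 0.17; limma, adjusted p = 0.0020), and again under IFN-β (−1.34 ± 0.17, 0.0021). Cst3, an inhibitor of such proteases, was lower (log2 fold change −0.64 ± 0.16; limma, adjusted p = 0.043), a call lost on leaving out any library. Of 8 tested genes of plasminogen activation, which can activate several MMPs, 0 passed untreated and S100a10 was higher in IFN-β-treated KO-labelled cells, by 0.83 ± 0.21 (limma, adjusted p = 0.047), lost on leaving out any of 9 libraries. With the block 2 genes of plasminogen activation were higher and 2 lower untreated, S100a10 among the higher (adjusted p = 0.0012, limma; without the block 0.096), and 3 were higher and 2 lower under IFN-β. Of 10 tested ADAMTS-like, tolloid and procollagen-processing genes, Adamtsl1 was lower untreated (log2 fold change −1.14 ± 0.27, limma, adjusted p = 0.040), lost on leaving out any of 8 libraries, and 0 passed under IFN-β. With the block 3 of these 10 were higher and 3 lower untreated, and 2 were higher and 3 lower under IFN-β.

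Mmp7 and Mmp10 belong to a cluster of MMP genes on chromosome 9, where Mmp10 lies 308.0 kb and Mmp7 118.6 kb from Birc2. Of 6 tested neighbours of the cluster, 3 were lower in untreated KO-labelled cells and 4 under IFN-β, and 5 in each treatment with the block. Yap1, a transcriptional coactivator, read 40250, 43507 and 54901 normalised reads in untreated WT-labelled and 2947 and 2725 in untreated KO-labelled libraries, a log2 fold change of −4.01 ± 0.19 (limma, adjusted p = 1.5e-05). Birc3 and Birc2, inhibitors of apoptosis, had untreated log2 fold changes of −5.15 ± 0.44 and −2.42 ± 0.32 (limma, adjusted p = 0.00026 and 0.0029). Tmem123 was lower under IFN-β (log2 fold change −2.16 ± 0.54, limma, adjusted p = 0.049), a call lost on leaving out any of 7 libraries. This list was chosen because these genes were known to differ between WT-labelled and KO-labelled cells, so its count is not evidence about the cluster.

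Markers of cell identity also differed between WT-labelled and KO-labelled cells. Of the 10 fibroblast markers, the small proteoglycans Dcn and Lum were lower in KO-labelled cells, and with the block 2 markers were higher and 2 lower. Dcn read 1702, 2005 and 1567 normalised reads in untreated WT-labelled and 81.8 and 77.3 in untreated KO-labelled libraries, a log2 fold change of −4.44 ± 0.18 (limma, adjusted p = 7.03e-06). Lum was lower (log2 fold change −4.06 ± 0.69; limma, adjusted p = 0.0092), and this did not hold without KO-labelled untreated library 2 (0.058). Lum read 15.4 to 47.4 in WT-labelled and 0.942 to 3.65 in KO-labelled libraries, and passed the low-count filter only through the former. Of 6 cartilage and bone markers 3 were detected, and Ibsp held 0 reads. Their summed level ran from 189 to 1564 in untreated WT-labelled and from 753 to 2539 in untreated KO-labelled libraries. Under IFN-β it ran from 120.4 to 1663 against 628 to 2872, and most of it was Col2a1. With the block 2 of the 3 tested were higher and 1 lower in KO-labelled cells in each treatment. Alpl was the lower one, at 8.78, 11.6 and 3.10 against 1.05 and 0.942 untreated. It passed the low-count filter only through WT-labelled libraries. The part of these marker differences in the protease results was not tested.

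Some genes of the family overlap others on the opposite strand, among them Timp1 with Syn1, Timp3 with Syn3, Adamts7 with Tbc1d2b, Adam17 with Iah1 and Mmp11 with Chchd10 (GENCODE M21). The library kit kept strand, but the strand setting of the counting is not given in the sources used here, so reads of such pairs may not be separated. On the same strand, Adam12 overlaps A130023I24Rik, Adam1a overlaps Mapkapk5, Adam4 overlaps Cox16 and Timp2 overlaps Cep295nl, and their values are uncertain to that extent.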

How the data were processed

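Total RNA was sequenced in 10 libraries; per the design text of the series the kit kept strand. The submitters' processing notes name cutadapt 1.13, STAR 2.5.2a, HTSeq, DESeq2 and the mm10 build. The annotation, the strand setting and filters are not given in the sources used here. The deposited signal is a scaled value, reads per gene over the size factor of the library. All values were whole multiples of what 1 read is worth, within 0.001 reads, and the reads were recovered (13565815 to 16329729 per library). Intervals and floors cover counting error only.

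The test was limma 3.58.1 with trend, in R 4.3.3, applied to log2(normalised reads + 1), with 4 group means over all 10 libraries. It ran over 12313 genes that passed filterByExpr (edgeR 4.0.16, minimum count 10), all 36 detected members among them. Adjusted p-values are Benjamini-Hochberg over all genes, two-sided, called under 0.05, and are from limma unless another tool is named. Fold changes on this scale understate those of low genes. edgeR and DESeq2 1.42.0 on the recovered reads were alternatives, beside the pseudocount, the filter, TMM scaling, the groups fitted, the replicate block and leaving out each library. The step was also run on simulated counts whose libraries shared no replicate-number effect, so that check cannot speak to the calls with the block.

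Replicate numbers pair the libraries by the data: deviations from group means correlated at 0.48 to 0.87 over 13 pairs of the same number, each above the limit of 0.1, and at −0.87 to 0.32 over 24 pairs of different numbers. Each KO-labelled group had 2 libraries, so their deviations mirror each other and the pairs with KO-labelled libraries are not separate values. Centring on the group mean also favours negative correlations between different numbers. The labels do not say what a number marks. The block was fitted as an added term.

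Coordinates and overlaps are from GENCODE M21 (GRCm38), and promoter windows from RefSeq. Members with full values are those that passed a test, all detected Timp genes and the 3 highest of each other subfamily. Others that passed in limma with the block only, and Adam12, Mmp10 and Mmp28, were named after their values were seen. From the other gene lists, up to 4 passing genes per list were named. Members and lists were chosen with earlier results of these data known.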

Additional observations from a re-analysis of the deposited data

How the results depend on the processing

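Without the block, Adamts3 and Adamts9 were called in both genotype comparisons in each fit that left out 1 library. Pseudocounts of 0.5 and 5, no low-count filter, a minimum count of 30, TMM scaling and edgeR kept the counts of members called within 1.5 times the main counts in all 5 comparisons (in genotype comparisons 3 to 4 of 4 untreated and 4 to 5 of 5 with IFN-β).

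Between genotypes untreated, where 4 members were called, DESeq2 called 8 (Adam22, Adam23, Adam8 and Mmp9 added), the replicate block 16 and edgeR with the block 18. A fit of only the groups compared called 1, Adamts3, so Adamts7, Adamts9 and Adam15 were not called in it. Leaving out 1 library gave 2 to 5, and 11, 15 or 16 with the block. With IFN-β, where 5 were called, DESeq2 called 8 (Adam23, Adam8 and Mmp9 added), the block 17 and edgeR with the block 18. Leaving out 1 library gave 2 to 6, and 13, 14, 15, 17 or 18 with the block. For IFN-β in WT-labelled cells, where 0 were called, DESeq2, the block and edgeR with the block each called 1, and leaving out 1 library gave 0 to 1, or 0 to 2 with the block. In KO-labelled cells leaving out 1 library gave 0, or 0 to 2 with the block. Genome-wide, the block raised the calls between genotypes from 767 to 3275 untreated and from 807 to 3203 with IFN-β, and those of IFN-β from 272 to 609 in WT-labelled and from 227 to 429 in KO-labelled cells; DESeq2 gave 1513 and 1504 between genotypes, 410 and 301 for IFN-β. The cause was not tested.

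The sign of Timp1 turned in 3 fits without the block: untreated without KO-labelled library 2 (0.25), and with IFN-β without WT-labelled library 1 (0.06) or KO-labelled library 2 (0.36). Over all fits that left out 1 library it ran from −1.77 to 0.25 untreated and from −1.59 to 0.36 with IFN-β. Such a fit also changes the balance of replicate numbers between groups. Adamts9, Mmp10 and Adam22 rest on few reads in KO-labelled libraries, which limits the precision of their fold changes.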
